A study of Mus musculus with 8 samples.

Results

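Genes of the bile duct epithelium (cholangiocytes) and of the ductular reaction were compared between livers of WT and N-LKO mice. The group held 36 genes named by symbol: keratins, surface and secreted proteins, claudins, transcription factors, cilia and polycystic genes, ion and hormone transport genes, and 3 Notch genes. The rule uses symbols and no measured value, although earlier results of these data were known when it was written. Of the 36, 35 were among the 19642 genes of the count table, and Sctr, the secretin receptor, was not analysed here. A mean of at least 0.5 CPM over the 8 livers was reached by 28 genes, of which 27 passed the filter on low counts and were tested. CPM is the read count divided by the size of the library, here scaled by edgeR's TMM method.

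Cholangiocytes line the bile ducts and modify bile by secreting chloride, bicarbonate and water. They carry a primary cilium, make a keratin pair that hepatocytes lack (Krt7 and Krt19), and are kept by transcription factors of the SOX, ONECUT and ETS families. In development, Jag1 on portal mesenchyme signals through Notch2 to turn hepatoblasts toward the duct lineage, with Sox9 and Hes1 among the target genes. A ductular reaction is the expansion of duct-like cells near the portal tract that follows many kinds of liver injury, and Epcam, Sox9, Spp1, Cd24a and Prom1 are among its usual markers.

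The mice were male, of C57BL6 background and on chow diet (CD). N-LKO mice carry loxP-flanked NgBR (Nus1) alleles deleted by albumin-Cre, a transgene driven by a promoter of hepatocytes and of their precursors, so deletion in cells of non-epithelial origin is not part of the design. WT livers are labelled by genotype alone, and the ages of the mice are not given in the sources used here. The sample titles give 8 weeks of diet and the treatment entries give 16 weeks, so its length is uncertain. The study's supplement gives 8 weeks for liver mRNA levels of chow-fed mice of both genotypes, with 4 mice per group. Its other panels of chow-fed N-LKO mice give 16 weeks or longer. Each genotype had 4 livers, 1 library per mouse, with total counts of 15430522 to 18412170 in WT livers and 14688380 to 18585376 in N-LKO livers. A count of 3 corresponded to 0.160 to 0.190 CPM in WT livers and 0.170 to 0.204 CPM in N-LKO livers. Nus1, on chromosome 10 from 52417547 to 52440183 (GRCm38, plus strand), had a WT mean of 88.2 ± 4.14 CPM and an N-LKO mean of 36.7 ± 2.57 CPM (SD, n = 4 each), and the genotypes did not overlap. Whether the deletion reached cholangiocytes cannot be read from whole-liver RNA.

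The 4 markers that define the cell type were read first. Per kilobase of merged exons in WT livers, Sox9 stood at 1.63 CPM, Epcam at 0.513, Krt19 at 0.334 and Krt7 at 0.0513, against 111 for Krt18, a keratin that hepatocytes also make. The cholangiocyte signal was therefore present but low in these libraries, and Krt7 lay under the 0.5 CPM minimum. The labels name a small RNA library kit, and how far it bears on levels per length was not tested. In whole liver, more cells of a type and more RNA per cell cannot be told apart.

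Epcam, Spp1 and Bicc1 rose in N-LKO livers, between 2.27-fold and 2.95-fold as ratios of mean CPM, and no tested member fell past the threshold. These were 3 of 27 members called by edgeR's quasi-likelihood test at an adjusted p under 0.05, all higher. Over all 14214 genes tested, 0.823% were called higher, 0.218% lower and 1.04% in either direction. At an unadjusted p under 0.05 the members numbered 14, 11 of them higher, beside 12.8% of all genes in either direction and 6.87% higher. Fold changes were above 0 in 18 of 27 members, with a median log2 fold change of 0.34 against -0.00 over all genes.

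CPM ranges that did not overlap between genotypes were found for 8 of the 28 genes. N-LKO livers were higher for Epcam, Spp1, Bicc1, Krt19, Sox4, Ddr1 and Cftr, and lower for Krt18. Cftr reached the mean of 0.5 CPM through the N-LKO livers alone, with every WT liver at or under 0.331 CPM. The minimum thus favoured its lack of overlap, which adds little. Among the 27 tested, 6 were higher and 1 lower without overlap, beside 4.20% and 3.32% of all genes tested (7.52% in either direction). The filter asked for 0.631 CPM in at least 4 livers. All 4 WT livers met that level for 23 of the 27, and Krt19, Prom1, Tspan8 and Ddr1 met it in fewer WT livers and rest on low counts.

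**Figure D1:**
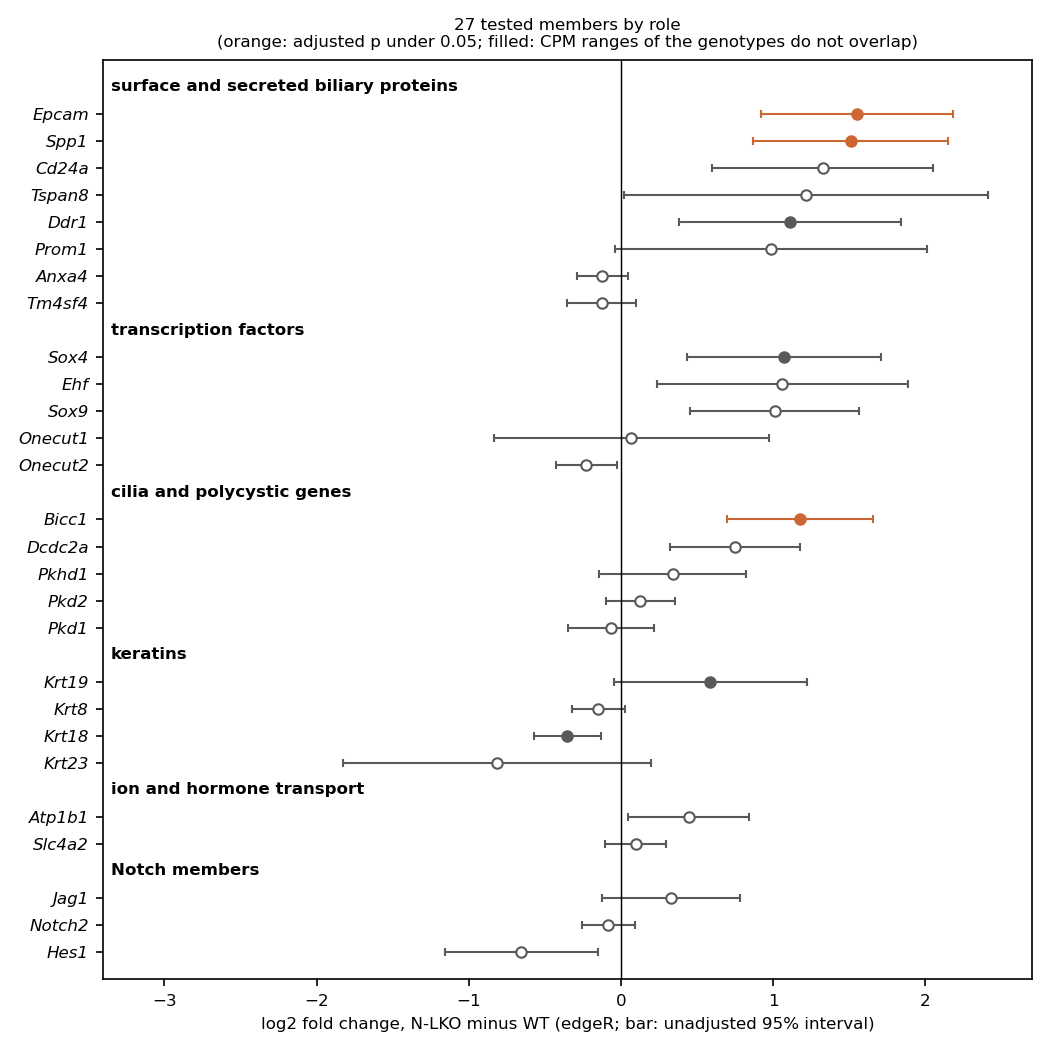
Log2 fold change of the 27 tested members (x axis, N-LKO minus WT, edgeR) by role, with unadjusted 95% intervals. Epcam, Spp1 and Bicc1, in orange, passed the adjusted threshold, and filled points mark the 7 tested members whose CPM ranges did not overlap.

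Epcam and Spp1 belong to the surface and secreted biliary proteins. Of 10 named in that group, 8 were tested, 2 were called higher and 0 lower, 6 had a fold change above 0, and the median log2 fold change was 1.16. Epcam, a homophilic adhesion glycoprotein of bile duct and progenitor cells, maps to chromosome 17 (87635979 to 87651129, plus strand). It was at 0.855, 1.06, 1.20 and 1.38 CPM in WT livers 1 to 4 and at 2.21, 3.63, 4.84 and 2.58 CPM in N-LKO livers 1 to 4. All N-LKO values lay above all WT values, with N-LKO 3 the highest and N-LKO 1 the lowest of its group. The means were 1.13 ± 0.222 and 3.32 ± 1.18 CPM (SD, n = 4 each), from 77 and 205 counts in all, and the log2 fold change was 1.55 (SE 0.285, adjusted p = 0.0293 from the edgeR test).

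Spp1 encodes osteopontin, a secreted phosphoprotein that cholangiocytes make in the liver, and maps to chromosome 5 (104435118 to 104441050, plus strand). Its level was 21.1, 16.1, 32.5 and 26.1 CPM in WT livers 1 to 4 and 37.4, 68.0, 105 and 61.9 CPM in N-LKO livers 1 to 4. The genotypes did not overlap, and WT 3 and N-LKO 3 were the highest of their groups. The means were 23.9 ± 6.99 and 68.1 ± 28.1 CPM (SD, n = 4 each), with a log2 fold change of 1.51 (SE 0.289, adjusted p = 0.0353 from the edgeR test). On the same strand, 18.8% of its exon length is shared with Gm42793, so reads of the pair could have been divided between them. Spp1 is also made by macrophages, whose lipid-associated markers are given below.

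The promoters of Epcam and Spp1 are shown because both genes rose, with capitals marking a match to a motif of a biliary factor. They are RefSeq sequences of GRCm38.p6, from 250 bases before to 50 bases after the start site, at chr17:87635729-87636028 for Epcam and chr5:104434861-104435160 for Spp1, both on the plus strand.
Epcam: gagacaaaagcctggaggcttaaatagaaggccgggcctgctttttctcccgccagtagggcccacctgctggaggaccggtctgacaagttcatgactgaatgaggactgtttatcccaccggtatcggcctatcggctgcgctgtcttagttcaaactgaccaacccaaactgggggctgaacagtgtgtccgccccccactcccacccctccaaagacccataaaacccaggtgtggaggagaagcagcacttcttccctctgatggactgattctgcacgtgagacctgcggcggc
Spp1: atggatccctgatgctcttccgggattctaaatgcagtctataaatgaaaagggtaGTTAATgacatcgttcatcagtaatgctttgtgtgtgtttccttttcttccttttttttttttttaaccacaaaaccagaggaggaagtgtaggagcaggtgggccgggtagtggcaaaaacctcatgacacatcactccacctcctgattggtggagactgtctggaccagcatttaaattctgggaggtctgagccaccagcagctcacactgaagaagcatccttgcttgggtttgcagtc
Motifs of 6 letters were searched on both strands, with these shares among all 32851 promoters of the table: RBPJ, the DNA-binding partner of Notch, as TGGGAA (25.6%); TEAD as GGAATG (14.7%); ONECUT as ATCAAT (7.54%); and HNF1 as GTTAAT (7.1%). The Epcam window held 0 matches. The Spp1 window held 1, GTTAAT on the plus strand, with its first base 194 bases before the start site. Of 21 promoters of members at or above 0.5 CPM, 4 held the RBPJ motif, 2 the TEAD, 2 the ONECUT and 4 the HNF1 motif (19%, 9.52%, 9.52% and 19%). A match is a run of letters and not a shown binding site. Spp1 has 2 entries in the table, and the one nearest to the gene's start was used. The promoter of Bicc1 was not used here.

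Cd24a encodes a small sialoglycoprotein anchored in the membrane and marks progenitor and duct cells. Its values were 2.46, 2.38, 4.69 and 3.59 CPM in WT livers and 4.37, 9.77, 12.5 and 6.25 CPM in N-LKO livers. Only N-LKO 1 lay within the WT range, and the log2 fold change of 1.33 (SE 0.329) had an adjusted p of 0.105 in the edgeR test. Ddr1, a receptor tyrosine kinase that binds collagen, was at 0.674 ± 0.166 CPM in WT livers and 1.48 ± 0.607 CPM in N-LKO livers (SD, n = 4 each). The genotypes did not overlap, but the counts were few, 47 against 92 in all, and the log2 fold change of 1.11 (SE 0.331) did not pass (adjusted p = 0.176, edgeR).

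Tspan8, a tetraspanin, and Prom1, the membrane glycoprotein CD133, overlapped between genotypes. Their log2 fold changes were 1.22 and 0.99, with adjusted p values of 0.386 and 0.410 (edgeR). Tm4sf4 and Anxa4 are also detected outside the ducts, and they stood at 42.7 and 6.97 CPM per kilobase in WT livers. Their log2 fold changes were -0.13 and -0.12, both within error (adjusted p = 0.659 and 0.551, edgeR). Muc1, a mucin, and Vtcn1, an immune checkpoint ligand, were under 0.5 CPM, with 37 against 23 and 19 against 44 counts in all.

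**Figure D2:**
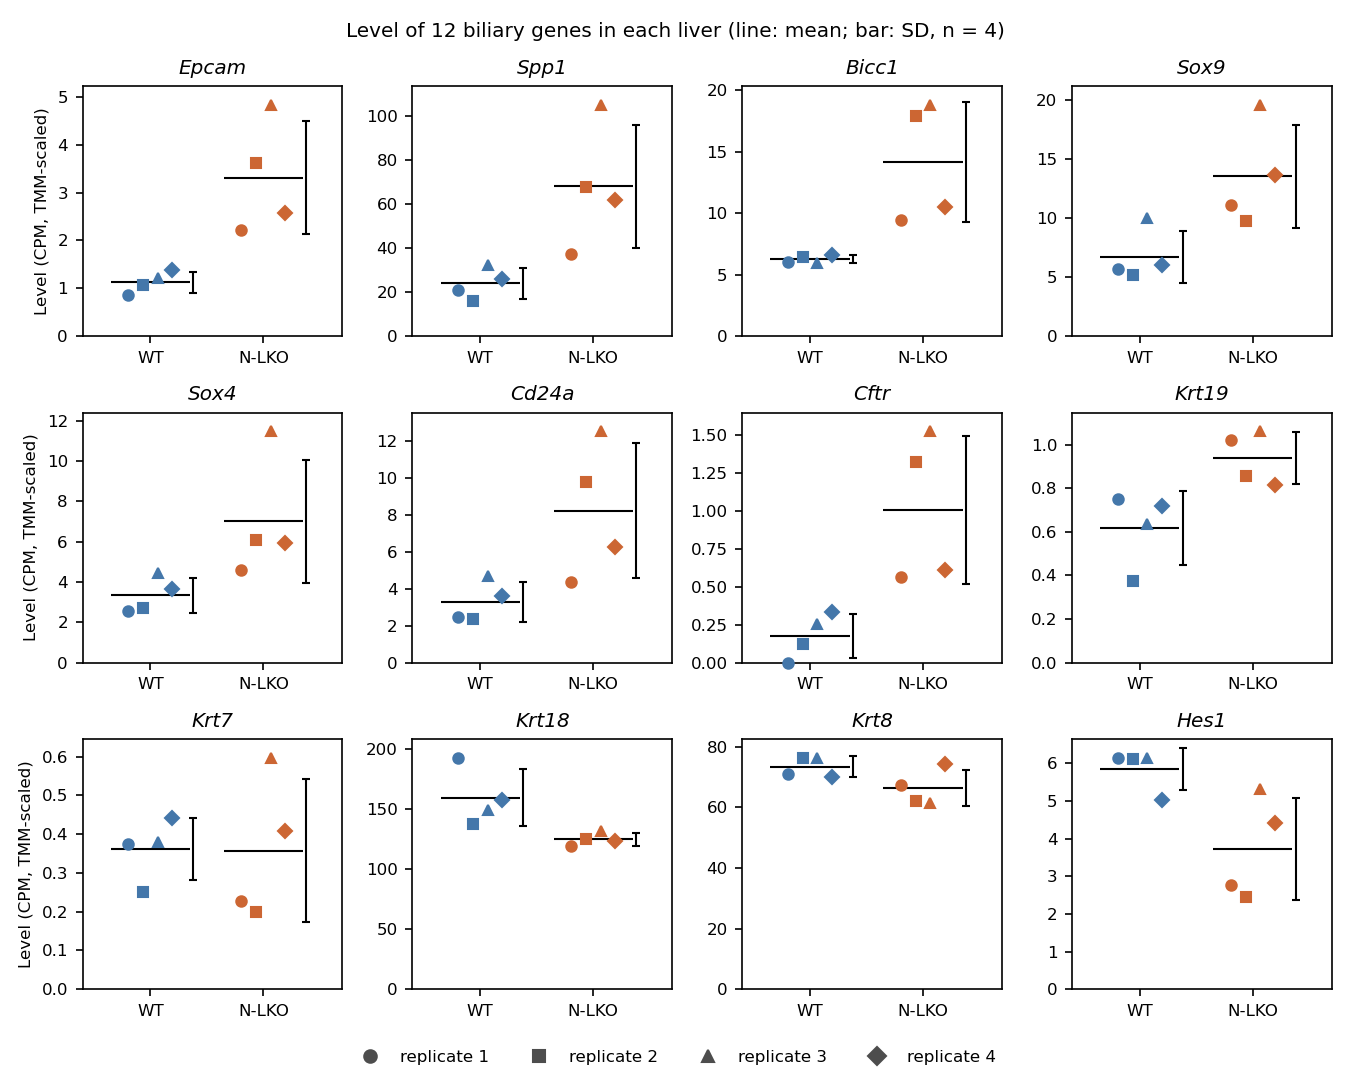
Level of 12 genes in each liver (y axis, CPM, linear and starting at 0, scaled per panel), with symbols for the replicate number, a line for the mean and a bar for the SD (n = 4). Epcam, Spp1, Bicc1, Sox4, Cftr and Krt19 have all N-LKO points above all WT points, Krt18 has them below, and Krt7 and Krt8 overlap.

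Among cilia and polycystic genes, 1 of 5 was called, Bicc1, and 4 of 5 fold changes were above 0. Bicc1 encodes an RNA-binding protein whose loss gives cystic kidneys and ducts, and maps to chromosome 10 (70922832 to 71159700, minus strand). It was the member with the least spread between WT livers among the 3 called, at 5.98, 6.44, 5.96 and 6.62 CPM. N-LKO livers 1 to 4 were at 9.47, 17.9, 18.8 and 10.5 CPM, all above the WT range, with N-LKO 2 and 3 well above N-LKO 1 and 4. The log2 fold change was 1.18 (SE 0.217, adjusted p = 0.0293, edgeR), with 4.69% of the exon length opposite 4930533K18Rik.

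Dcdc2a, a doublecortin-domain protein of the cilium whose human counterpart is mutated in neonatal sclerosing cholangitis, was at 3.97 ± 0.304 CPM in WT livers and 6.70 ± 1.75 CPM in N-LKO livers (SD, n = 4 each). N-LKO 1, at 4.37 CPM, was inside the WT range, and the log2 fold change of 0.75 (SE 0.193) did not pass (adjusted p = 0.118, edgeR). Pkhd1, which encodes fibrocystin, and Pkd1 and Pkd2, which encode the polycystins, gave log2 fold changes of 0.34, -0.06 and 0.13, with adjusted p values of 0.566 to 0.889 (edgeR). A small part of Pkd1, 3.98% of its exon length, lies opposite Tsc2.

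No transcription factor of the group passed the threshold. Among the 5 tested, 4 had an unadjusted p under 0.05 (edgeR), with Sox9, Sox4 and Ehf higher and Onecut2 lower. Fold changes were above 0 in 4, namely Sox9, Sox4, Ehf and Onecut1. Sox9, the factor most used to mark duct cells, maps to chromosome 11 (112782224 to 112787760, plus strand). It was at 5.72, 5.19, 10.02 and 6.02 CPM in WT livers and at 11.1, 9.77, 19.6 and 13.6 CPM in N-LKO livers. WT 3 lay above N-LKO 2, which was the one overlap between the groups. The means were 6.74 ± 2.21 and 13.5 ± 4.37 CPM (SD, n = 4 each), with a log2 fold change of 1.01 (SE 0.251, adjusted p = 0.105, edgeR). Without WT 3 the log2 fold change was 1.26 and passed (adjusted p = 0.0457, edgeR), and in the other 7 fits without 1 liver it did not.

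Sox4, which acts with Sox9 in duct formation, maps to chromosome 13 (28948919 to 28953713, minus strand). It was at 2.56, 2.69, 4.44 and 3.64 CPM in WT livers and at 4.59, 6.07, 11.5 and 5.91 CPM in N-LKO livers, and the genotypes did not overlap. The log2 fold change was 1.07 (SE 0.289, adjusted p = 0.135, edgeR). Over its exons, 54.6% of the length lies opposite Gm26735. Whether strand was used in counting is not stated, and the value is uncertain.

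Ehf, an epithelial ETS factor, was at 0.956 ± 0.192 CPM in WT livers and 2.02 ± 1.10 CPM in N-LKO livers (SD, n = 4 each), a log2 fold change of 1.06 (adjusted p = 0.252, edgeR) with N-LKO 3 at 3.58 CPM. Elf3, of the same family, was under 0.5 CPM with 20 against 28 counts in all. Onecut1 (HNF6) and Onecut2 are used by hepatocytes too. Onecut2 was at 158 ± 12.8 CPM in WT livers and 135 ± 13.2 CPM in N-LKO livers (SD, n = 4 each), a log2 fold change of -0.23 (adjusted p = 0.322, edgeR). Onecut1 spread widely in WT livers, from 3.04 to 13.9 CPM, and shares 52.8% of its exon length with Gm20649 on the same strand. Its log2 fold change of 0.07 had an unadjusted 95% interval of -0.83 to 0.97.

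The summed level of the 5 keratins, 66.0% of it Krt18, was 217 to 266 CPM in WT livers and 188 to 200.1 CPM in N-LKO livers. Of 4 tested, 0 were called by edgeR, DESeq2 or limma-voom, 1 had an unadjusted p under 0.05 (Krt18), 1 had a fold change above 0 (Krt19), and the median log2 fold change was -0.25. Krt19, the duct keratin, maps to chromosome 11 (100140810 to 100148665, minus strand). It was at 0.748, 0.375, 0.634 and 0.717 CPM in WT livers and at 1.02, 0.858, 1.06 and 0.815 CPM in N-LKO livers. The genotypes did not overlap, but only 43 and 59 counts stood behind them, and the log2 fold change of 0.59 (SE 0.287, unadjusted 95% interval -0.05 to 1.22) did not pass (adjusted p = 0.428, edgeR).

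Krt7, its partner among the duct keratins, maps to chromosome 15 (101411043 to 101430313, plus strand). It was at 0.374, 0.250, 0.380 and 0.441 CPM in WT livers and at 0.227, 0.198, 0.597 and 0.407 CPM in N-LKO livers. The N-LKO range enclosed the WT range. Without the filter on low counts its log2 fold change was -0.04, with an unadjusted 95% interval of -1.07 to 0.98 (adjusted p = 0.982, edgeR).

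Krt8 and Krt18 form the keratin pair of hepatocytes and cholangiocytes alike. Krt18, at chromosome 15 (102028180 to 102032027, plus strand), was at 193, 137, 149 and 158 CPM in WT livers and at 119, 125, 131.6 and 124 CPM in N-LKO livers. All N-LKO values lay below all WT values, and the log2 fold change of -0.35 (SE 0.101) did not pass (adjusted p = 0.161, edgeR). Krt8 was at 73.5 ± 3.36 CPM in WT livers and 66.3 ± 5.95 CPM in N-LKO livers (SD, n = 4 each), a log2 fold change of -0.15 (adjusted p = 0.480, edgeR). A pseudogene, Krt8-ps, is in the same table and could share its reads. Krt23 varied among livers of both genotypes, from 1.02 to 4.25 CPM in WT and from 0.851 to 2.99 CPM in N-LKO, and its log2 fold change of -0.82 did not pass (adjusted p = 0.506, edgeR).

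Cftr encodes the chloride channel through which cholangiocytes drive bile flow, and maps to chromosome 6 (18170687 to 18322768, plus strand). WT livers 1 to 4 held 0, 2, 4 and 6 counts and N-LKO livers 10, 20, 23 and 9 counts. The genotypes did not overlap, at 0.177 ± 0.146 CPM and 1.01 ± 0.489 CPM (SD, n = 4 each). Cftr reached the mean of 0.5 CPM through the N-LKO livers alone and did not pass the filter on low counts. Fitted without it, the log2 fold change was 2.45 (SE 0.623, unadjusted 95% interval 1.09 to 3.80) with an adjusted p of 0.115 (edgeR).

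Slc4a2, the chloride and bicarbonate exchanger of the duct, differed little, at 13.3 ± 1.21 CPM in WT livers and 14.2 ± 0.442 CPM in N-LKO livers (SD, n = 4 each), a log2 fold change of 0.10 (adjusted p = 0.723, edgeR). Atp1b1, a subunit of the sodium pump, was at 76.9 ± 16.4 and 105 ± 24.1 CPM (SD, n = 4 each), a log2 fold change of 0.44 (adjusted p = 0.337, edgeR). In Atp1b1, as in Onecut2, N-LKO 1 was the highest and N-LKO 3 the lowest of its group. Parts of both genes lie opposite others, 14.9% of the exon length for Slc4a2 and 18.7% for Atp1b1.

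The 3 claudins, proteins of the tight junctions that seal the duct lumen, were all under 0.5 CPM. Their summed level was 0.321 to 0.634 CPM in WT livers and 0.340 to 1.12 CPM in N-LKO livers. Cldn4 had 4 counts in WT livers and 15 in N-LKO livers, Cldn6 7 and 9, and Cldn7 19 and 24. Fitted without the filter, 0 passed and 1, Cldn4, had an unadjusted p under 0.05, with log2 fold changes of 1.89, 0.46 and 0.47 and adjusted p values of 0.419, 0.895 and 0.826 (edgeR).

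Of the 3 Notch members, 0 were called by edgeR, DESeq2 or limma-voom, and 1, Hes1, had an unadjusted p under 0.05. The ligand Jag1 was at 4.03 ± 0.879 CPM in WT livers and 5.05 ± 1.27 CPM in N-LKO livers, and the receptor Notch2 at 35.2 ± 2.39 and 33.2 ± 2.09 CPM (SD, n = 4 each). Their log2 fold changes were 0.33 and -0.08 (adjusted p = 0.555 and 0.717, edgeR). Hes1, a transcriptional repressor and target of the pathway, was at 6.14, 6.13, 6.15 and 5.02 CPM in WT livers and at 2.78, 2.44, 5.31 and 4.41 CPM in N-LKO livers. N-LKO 3 lay within the WT range and the other N-LKO livers below it, with a log2 fold change of -0.65 (SE 0.227, adjusted p = 0.244, edgeR).

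Among 18 further tested genes of the Notch pathway (receptors, ligands, RBPJ and its coactivators, fringes, secretases), 0 were called by edgeR, DESeq2 or limma-voom and 0 had an unadjusted p under 0.05 in edgeR. Their median log2 fold change was 0.01, and 10 were above 0. Among 14 tested genes of YAP and TEAD, which drive duct fate when Hippo signalling is low, 0 were called by the same tools and 1 had an unadjusted p under 0.05 in edgeR, with a median log2 fold change of 0.08. That gene was Wwtr1, which encodes TAZ, at 0.34 (adjusted p = 0.131, edgeR). The summed level of the list was 285 to 291.6 CPM in WT livers and 291.8 to 339 CPM in N-LKO livers. Ankrd1, a target gene under the filter on low counts and picked out after its values were seen, was at 0.107 to 0.276 CPM in WT livers and 0.340 to 1.79 CPM in N-LKO livers. Its WT values rest on 2 to 5 counts per liver. Of the 14 tested, 10 fold changes were above 0, with Ccn2 at 0.57 and Ccn1 at -0.56 (adjusted p = 0.422 and 0.553, edgeR).

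A second list of 20 tested biliary genes held 1 called gene. Ncam1, an adhesion molecule of reactive ductular cells and also of nerves and activated stellate cells, was at 0.107, 0.188, 0.063 and 0.166 CPM in WT livers and at 0.680, 0.924, 1.06 and 0.747 CPM in N-LKO livers. This gave a log2 fold change of 2.63 (SE 0.388, adjusted p = 0.0102, edgeR). Ncam1 passed the filter on low counts through the N-LKO livers alone, with 1 to 3 counts in each WT liver, so its fold change is a rough value, and a gene that enters this way had to differ. In that list 18 of 20 fold changes were above 0, against 7004 of all 14214 genes tested, and the median log2 fold change was 0.35. An unadjusted p under 0.05 was found for 9 (edgeR), beside 12.8% of all genes in either direction. Ranges were higher without overlap for 5, Ncam1 included, beside 4.20% of all genes. Among 18 tested genes of the primary cilium other than the members, 6 fold changes were above 0, the median log2 fold change was -0.04, and 1 was called. It was Glis3, a zinc finger factor whose loss gives cystic disease, with a log2 fold change of 1.43 (SE 0.259, adjusted p = 0.0263, edgeR), a call lost without WT 2, WT 3, WT 4, N-LKO 3 or N-LKO 4 (adjusted p up to 0.0944).

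The livers of one genotype differed among themselves in the same direction across many members. N-LKO 3 was the highest of its group in 18 of 28 genes, among them all 7 that were higher without overlap, whereas it was the highest in 24.0% of all genes tested. N-LKO 1 was the lowest of its group in 19 of 28, against 26.0% of all genes tested. In the WT group, WT 3 was the highest in 16 of 28, against 27.5% of all genes. Members are not independent of each other, and these shares are descriptions. Without N-LKO 3 the log2 fold changes of Epcam, Spp1 and Bicc1 were 1.31, 1.22 and 1.01, and without N-LKO 1 they were 1.71, 1.71 and 1.33.

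**Figure D3:**
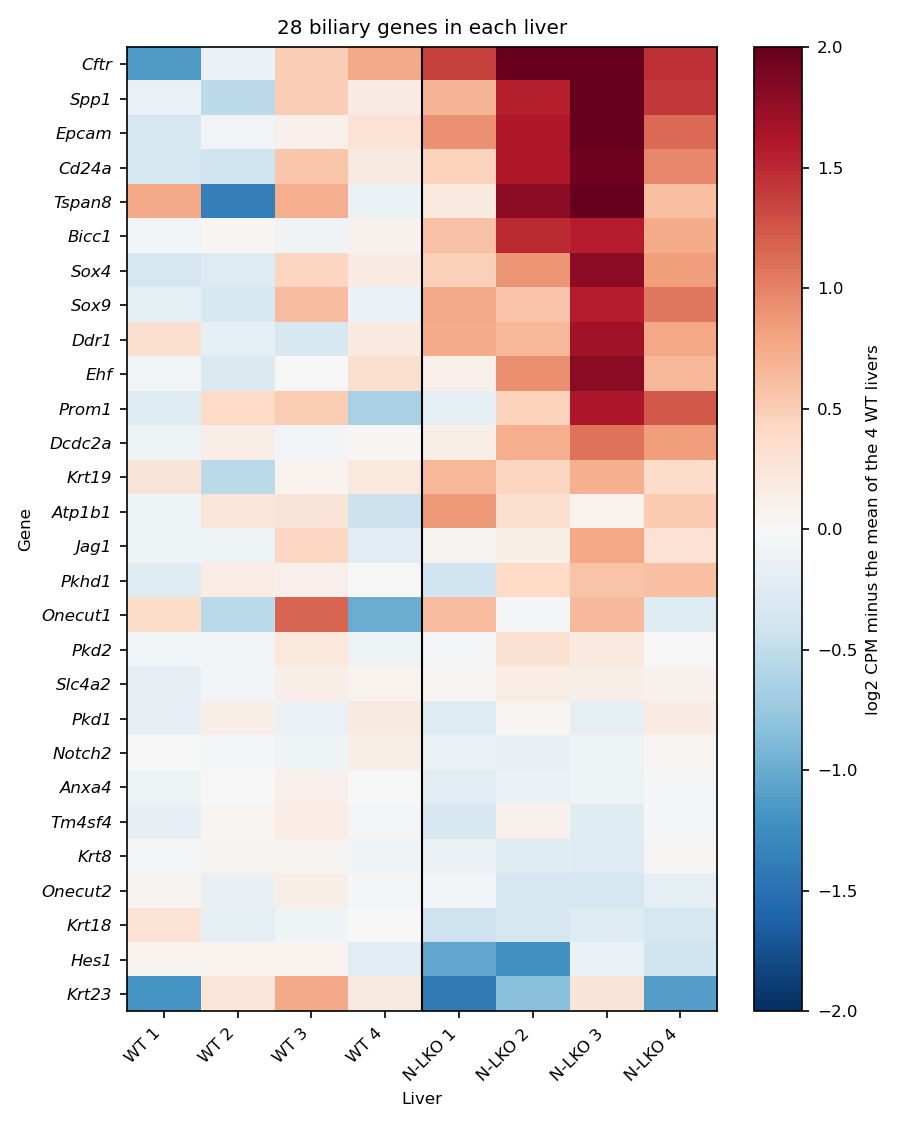
Log2 CPM of 28 genes (rows) in each liver (columns) minus the mean of the 4 WT livers, with colours running from -2 to 2 on the log2 scale. N-LKO 3 holds the darkest red column, and Krt8, Notch2 and Anxa4 are near 0 in every liver.

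Markers of other cells moved with some of these genes. All 10 tested markers of portal fibroblasts had a fold change above 0, and 4 were called, Pdgfra (log2 fold change 1.40), Lum (1.46), Eln (1.62) and Col1a1 (1.45). Among the markers not called, Thy1 (0.32) and Fbln2 (0.66) overlapped between genotypes (adjusted p = 0.720 and 0.470, edgeR). The 10 markers summed to 154 to 211 CPM in WT livers and 239 to 340 CPM in N-LKO livers. This sum was highest in N-LKO 3 and N-LKO 2 and lowest in N-LKO 1. Dcn made up 70.9% of that sum. Lipid-associated macrophage markers summed to 43.3 to 51.5 CPM in WT livers and 61.7 to 92.4 CPM in N-LKO livers, highest again in N-LKO 3. Lpl made up 59.0% of that sum and did not pass (log2 fold change 0.60, adjusted p = 0.152, edgeR). Of 5 markers tested, 4 had a fold change above 0, Cd9 was at -0.01, and 2 were called, Gpnmb and Mmp12. Both passed the filter on low counts through the N-LKO livers alone, with 22 and 19 counts in all WT livers against 224 and 197 in all N-LKO livers, and so had to differ. Mesothelial markers summed to 6.89 to 9.71 CPM and 9.70 to 13.1 CPM, with 1 of 5 tested called, Wt1 (1.75), while the defining markers Msln and Upk3b were at 0.49 and -0.37. None of these lists had a defining marker at 0 in all livers. Fits without 1 liver kept the calls of Pdgfra and Lum. That of Col1a1 was kept only without N-LKO 2, that of Eln was lost without WT 2, WT 4 or N-LKO 3, and that of Wt1 without WT 4, with adjusted p values of up to 0.114, 0.0713 and 0.0511. The part of these cells in the result was not tested. Which cells made the transcripts of each list, stellate cells included, was not tested either.

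For the hepatocyte, Kupffer cell, endothelial, proliferation and stellate cell lists the sums overlapped between genotypes. The sum of 10 hepatocyte markers was 75455 to 105866 CPM in WT livers and 78534 to 95609 CPM in N-LKO livers, with 0 called by edgeR, DESeq2 or limma-voom and 0 at an unadjusted p under 0.05. Kupffer cell markers summed to 78.9 to 144.1 and 74.6 to 130.2 CPM, and endothelial markers to 154 to 185 and 144.1 to 169 CPM, with 0 of 6 called by these tools in either list and 1 and 0 at an unadjusted p under 0.05. Fold changes were above 0 in 0 of 6 Kupffer cell markers and 1 of 6 endothelial markers, with median log2 fold changes of -0.19 and -0.06. Proliferation genes summed to 5.90 to 8.11 and 6.18 to 8.43 CPM, with 0 of 5 called by these tools and 1 at an unadjusted p under 0.05. Stellate cell markers summed to 166 to 250 and 148 to 206 CPM, and 2 of 9 were called lower, Colec10 (-1.31) and Ecm1 (-0.83). The list did not move as a whole, with 4 of 9 fold changes above 0. An unadjusted p under 0.05 was found for 3 (edgeR), including Des, which was higher (0.63, adjusted p = 0.352, edgeR). Of 7 pancreatic acinar markers only Cela1 was in the table (log2 fold change 0.06). Intestinal markers summed to 155.8 to 197 and 111 to 149 CPM, 87.2% of it Fabp2 (log2 fold change -0.51, adjusted p = 0.101), and among the 3 tested Tff3, a trefoil peptide that bile ducts also make, was called higher (2.42). Only 2 WT livers met the level of the filter on low counts for Tff3, against 4 N-LKO livers. Tff3 thus entered the test through the N-LKO livers, with 46 counts in all WT livers and 227 in all N-LKO livers. Its fold change is a rough value. The call of Tff3 was lost without WT 3, WT 4 or N-LKO 3, and that of Ecm1 without WT 4 or N-LKO 3 (adjusted p up to 0.0601 and 0.0522).

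**Figure D4:**
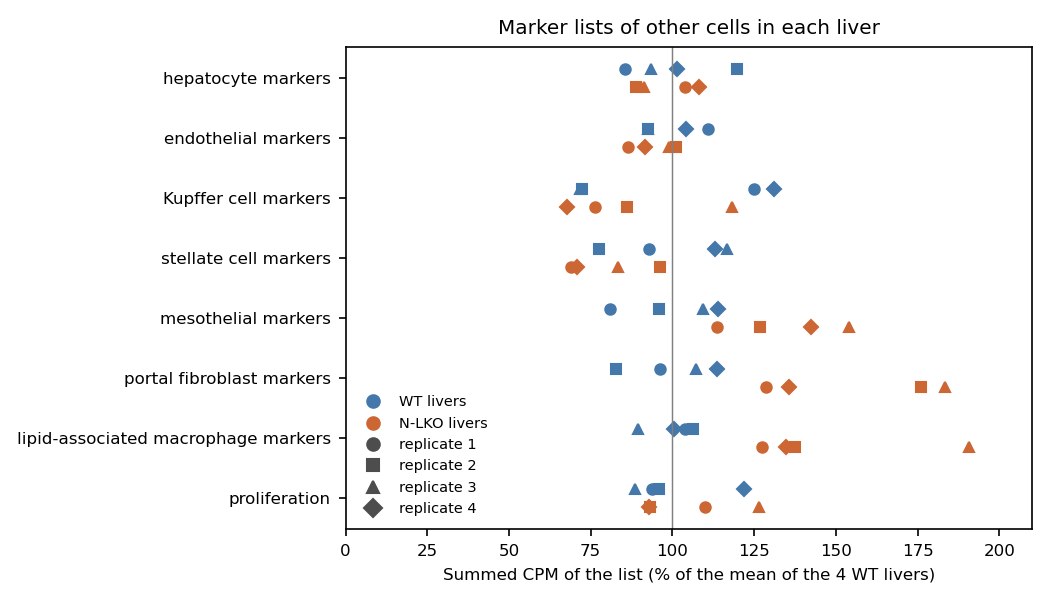
Summed CPM of 8 marker lists in each liver (x axis, percent of the mean of the 4 WT livers), with symbols for the replicate number. For portal fibroblast and lipid-associated macrophage markers all N-LKO points lie to the right of all WT points, and hepatocyte, endothelial, Kupffer cell and proliferation markers overlap.

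The calls of Epcam, Spp1 and Bicc1 lay near the threshold. Each was lost in 6 of the 8 fits that left out 1 liver, with adjusted p values from edgeR of up to 0.0877, 0.0964 and 0.0847, although the log2 fold change stayed at or above 1.31, 1.22 and 1.01. Epcam and Bicc1 kept the call without N-LKO 1 or N-LKO 4, and Spp1 without WT 3 or N-LKO 1. Cd24a and Dcdc2a passed only without N-LKO 1 (adjusted p = 0.0425 and 0.0184, edgeR). Limma-voom called 0 of the 27 members, beside 0.886% of all genes called at the same adjusted threshold. At an unadjusted p under 0.05 limma-voom had 13 members, and the share of all genes at that level was not computed. DESeq2 called 7, adding Cd24a, Sox9, Sox4 and Dcdc2a, beside 2.61% of all genes.

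**Figure D5:**
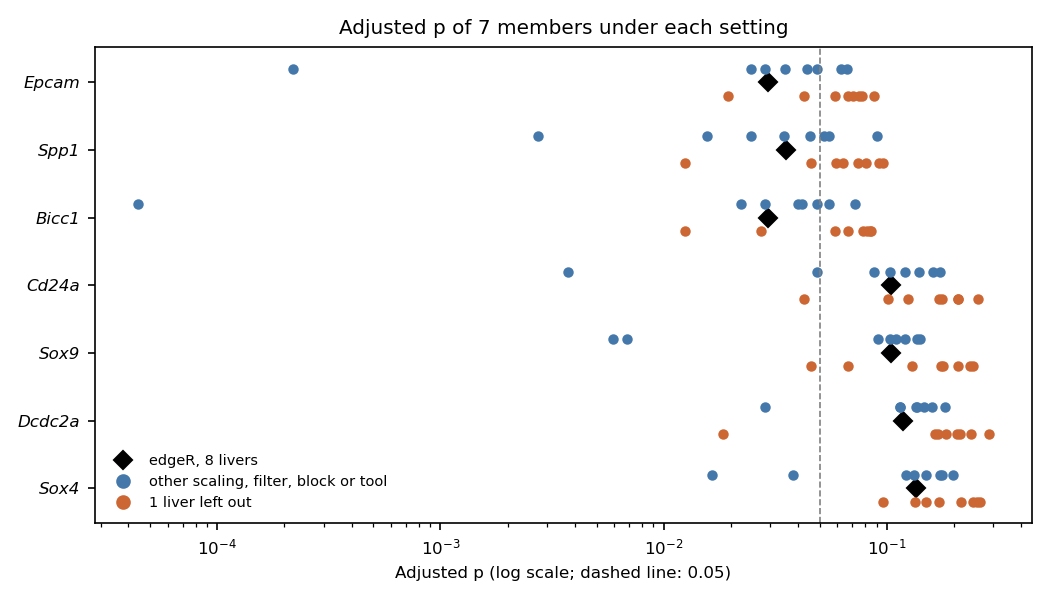
Adjusted p (x axis, log scale) of 7 members with all 8 livers in edgeR (black), under other scalings, filters, blocks or tools (blue) and with 1 liver left out (orange). For Epcam, Spp1 and Bicc1 the points fall on both sides of the dashed line at 0.05.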

How the data were processed

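The authors deposited expected counts, 1 estimate per gene and liver that can hold decimals, made from trimmed and aligned reads and not scaled to a common depth. The study's methods name TopHat2 and cuffdiff, and the submitters' processing notes name STAR, Partek and mm9, without roles. RNA was depleted of rRNA, and the library kit named is one for small RNA. Coordinates in the table are those of GRCm38, and all 35 members matched GENCODE M21. Of 19642 genes, 52.2% had decimals. Strand use in counting is not given in the sources used here.

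Counts were rounded and filtered with filterByExpr (minimum count 10, minimum total 15). Libraries were scaled by TMM, and genotype was tested with edgeR 4.0.16 (quasi-likelihood) in R 4.3.3, with Benjamini-Hochberg adjustment over 14214 genes. Log2 CPM used a prior count of 2. With 4 against 4 livers the smallest exact two-sided permutation p is 0.0286. No pair of libraries agreed within sampling noise (chi-square per degree of freedom of at least 11.9). The p-values measure the spread between mice.

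Members and lists were chosen with earlier results of these data known. Named with values were the 4 cell type markers, called members, members whose genotypes did not overlap and Nus1, with the other members by role and called genes of the other lists. Alternatives were RLE scaling, library totals, no filter, at least 10 counts in every liver, DESeq2 1.42.0, limma-voom (limma 3.58.1), replicate or library number as a block, each liver left out, a prior count of 0.5 and a minimum of 1 CPM. Library number is the name used here for the digit after the genotype in the column headers of the counts. What that digit stands for is not stated.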

Additional observations from a re-analysis of the deposited data

Results flagged for a closer look

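In 56 groups of 4 livers (28 genes in each genotype), 3 held a liver far from the other 3 by Dixon's criterion, where chance gives about 2.8. Ddr1 was at 1.33 log2 CPM in N-LKO 3 and at 0.32 to 0.43 in the other N-LKO livers. Pkd2 was at 4.41 log2 CPM in WT 3 and at 4.11 to 4.15 in the other WT livers. Hes1 was at 2.36 log2 CPM in WT 4 and at 2.64 to 2.65 in the other WT livers.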

How the results depend on the processing

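Of the 27 tested members, edgeR called 3, all higher. Library totals without TMM gave 1 (Epcam), DESeq2 7 and limma-voom 0, and RLE scaling, no filter and at least 10 counts in every liver each gave the same 3 genes. With 1 liver left out the count ran from 0 to 5. It was 0 without WT 1, WT 2, WT 4, N-LKO 2 or N-LKO 3. It was 2 without WT 3 (Sox9 and Spp1) or N-LKO 4 (Epcam and Bicc1), and 5 without N-LKO 1. In the fits with 0, 12 to 13 members had an unadjusted p under 0.05 (edgeR). The share of all genes at that level was not computed for them, so this count is not a result about the members. Over all genes, 148 were called, 98 with at least 10 counts in every liver, 371 with DESeq2 and 71 to 173 with 1 liver left out (83 without WT 2, 91 without WT 3, 71 without WT 4 and 76 without N-LKO 3). Called genes of the other lists numbered 12, 6 with at least 10 counts in every liver and 6 to 14 with 1 liver left out, lowest without WT 4. Members without overlap numbered 8, and 9 to 13 with 1 liver left out, highest without N-LKO 1. With fewer livers the ranges of any gene overlap less often. The share over all genes was not computed for those fits, so the rise is not a result about the members. The fold change of Onecut1, 0.07 with all livers, was -0.12 without WT 2, -0.19 without WT 4, -0.06 without N-LKO 1 and -0.07 without N-LKO 3, with a range of -0.19 to 0.58 over the 8 fits. The cause of these shifts was not tested. Depth limits the claudins, Krt7, Cftr and Krt19, whose values rest on few counts.

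The replicate numbers of the titles did not pair the livers (correlations of deviations from -0.09 to 0.06 by replicate number, -0.01 to 0.17 by library number). With the replicate number as a block 6 members were called, Bicc1, Cd24a, Epcam, Sox4, Sox9 and Spp1, beside 0.922% of all genes. The library number as a block gave 1, Bicc1, beside 0.795% of all genes.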

Other observations

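Besides Ncam1, 4 tested genes of the second biliary list had all N-LKO values above all WT values without passing the threshold, and were picked out after their values were seen. Slc5a1, a glucose transporter of the apical duct membrane, was at 0.497 to 1.01 CPM in WT livers and 1.19 to 3.05 CPM in N-LKO livers (log2 fold change 1.53, adjusted p = 0.0778, edgeR). Itgb8, the beta subunit of an integrin that activates TGF-beta, was at 0.717 to 1.39 and 1.53 to 3.30 CPM (1.32, adjusted p = 0.101, edgeR). Ano1, a calcium-activated chloride channel, was at 1.19 to 2.03 and 2.04 to 3.23 CPM (0.77, adjusted p = 0.183, edgeR), and Cdh1, the epithelial cadherin, at 31.1 to 45.8 and 47.5 to 70.1 CPM (0.46, adjusted p = 0.201, edgeR). Mmp7, a matrix metalloproteinase of injured bile ducts, did not pass the filter on low counts, at 0.053, 0, 0.254 and 0.221 CPM in WT livers and 0.567, 1.06, 2.72 and 1.63 CPM in N-LKO livers. Its WT values rest on 1, 0, 4 and 4 counts, and Mmp7 too was picked out after its values were seen.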
